A study of Mus musculus with 22 samples.

Results

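The genes described here are 10 that serve the removal of superoxide and peroxides. They are the superoxide dismutases Sod1, Sod2 and Sod3, catalase (Cat), the glutathione peroxidases Gpx1, Gpx2 and Gpx3, the peroxiredoxins Prdx5 and Prdx6, and thioredoxin (Txn1). Thioredoxin restores peroxiredoxins and does not itself stand for a peroxide-removing step, but it is counted among the 10 enzymes below. They were chosen by name, through the RefSeq transcript accession that the array files give for each probe, and make up 10 of 20018 named genes and 14 of 55681 probes. All 10 were expressed above background in lung. Cat has 2 probes, Prdx6 has 4, and each of the other 8 genes has 1.

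The RNA came from the right lung of female C57BL/6 mice, 8 weeks old when the experiment began and killed 24 h after a single intratracheal instillation. The 5 control mice received vehicle alone, which was saline with bronchoalveolar lavage fluid. The treated mice received 18 µg (6 mice), 54 µg (5 mice) or 162 µg (6 mice) of Mitsui7, a multiwalled carbon nanotube, in the same vehicle. All animals, controls included, were anaesthetised and instilled. Each array holds the RNA of 1 mouse in the Cy5 channel. The Cy3 channel holds the same universal mouse reference RNA throughout, a mixture made from 11 cell lines. Each value is therefore a log2 ratio of lung to reference, normalised within its array by loess, and values of different probes were not set against each other. In RNA of whole lung, fewer cells of a type and less RNA per cell cannot be told apart.

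Superoxide arises in mitochondria and at the NADPH oxidases of phagocytes. Superoxide dismutases turn it into hydrogen peroxide, Sod1 mainly in the cytosol with copper and zinc, Sod2 in the mitochondrial matrix with manganese, and Sod3 outside the cell, where it is bound to the matrix of lung and vessels. Hydrogen peroxide is then removed by catalase in peroxisomes, by glutathione peroxidases at the expense of glutathione, and by peroxiredoxins, which react through a cysteine that thioredoxin or glutathione restores. Prdx6 also cleaves phospholipids and takes part in the turnover of lung surfactant.

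The arrays lay on 7 slides of 3 or 4 arrays, and 2 of the slides held no control. Median Cy5 signal over local background ranged from 1.17 to 2.48 between arrays, and 52.1% to 83.5% of probes lay above background. Under 60% did so on 4 arrays, those of replicate 6 at 18 µg, replicate 3 at 54 µg and replicates 4 and 6 at 162 µg. The markers of type II alveolar cells, all 8 of 8 above background, had a mean log2 ratio of 4.65 to 4.94 in the control lungs. Dose and slide were the terms of a limma model over the 22 arrays, and Benjamini-Hochberg adjustment covered all 55681 probes. A gene was called where the adjusted p was at most 0.05, the change at least 1.5-fold and the probe above background. Cat and Prdx6 are represented by their brightest probe unless stated. The 3 doses were compared with the same 5 controls, so these comparisons are not independent of each other.

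Of the 10 enzymes, each on its brightest probe, Sod2 alone was called against controls, and only at 162 µg, where it rose. Prdx6 was called higher at 162 µg on its other probes, which are described below and not counted here. At 18 µg 0 of the 10 were called in limma, against 2.06% of the 16433 expressed genes, and 2 had an unadjusted p under 0.05. At 54 µg 0 were called, against 0.353% of genes, and again 2 had an unadjusted p under 0.05. At 162 µg 1 was called, against 6.85% of genes, and 3 had an unadjusted p under 0.05. The share of all genes with such an unadjusted p was not counted. The median log2 fold change over the 10 enzymes was -0.03, 0.03 and 0.22 in order of dose, while that over all expressed genes lay between -0.02 and -0.01. At 162 µg 7 enzymes were higher than in controls and 3 were lower. That split depends on the normalisation. With arrays centred on their median in place of loess, Gpx1 (-0.098), Gpx3 (-0.14), Prdx5 (-0.18) and Txn1 (-0.090) were lower at 162 µg. The median over all expressed probes was then -0.11. The share of all genes that were higher was not counted.

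**Figure D1:**
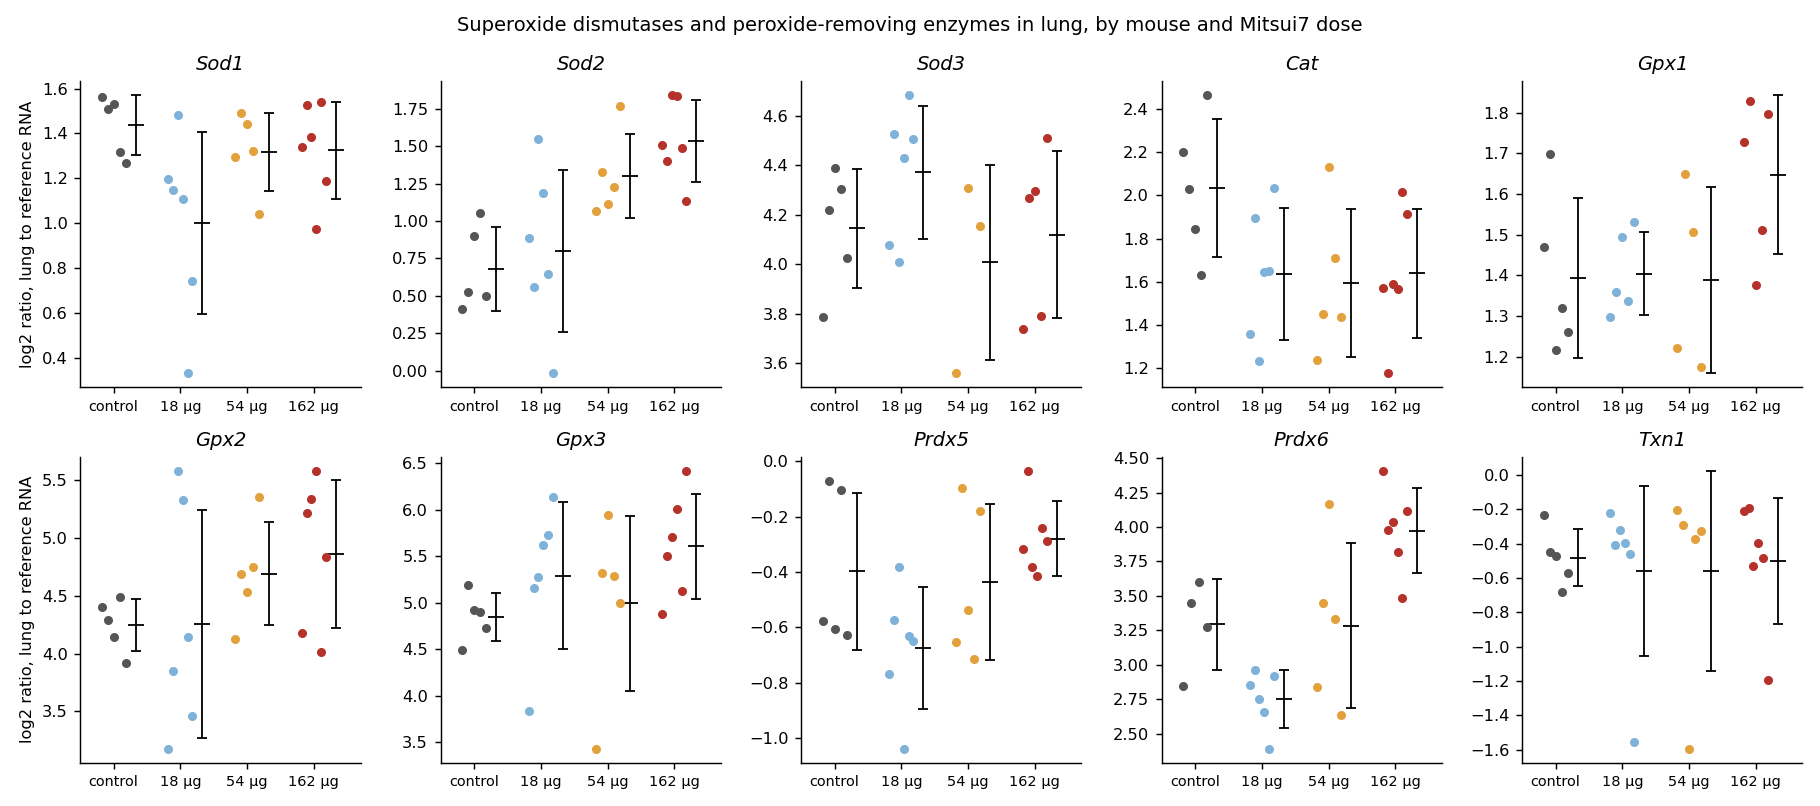
Log2 ratio of lung to reference RNA (vertical axes, each with its own range) of the 10 enzymes in control lungs and at 18, 54 and 162 µg Mitsui7. Points are mice, on the brightest probe of each gene, and bars beside them give the mean and SD. For Sod2 all mice at 54 and 162 µg lie above all controls, and for Txn1 1 mouse of each treated group lies far below the others.

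For Sod2, the mitochondrial dismutase, every mouse given 54 or 162 µg lay above every control, and the rise was called at 162 µg. The log2 ratio in the 5 control lungs was 0.42, 0.53, 0.90, 1.05 and 0.50. At 18 µg it ran from -0.02 to 1.55 with a median of 0.77, and these values overlap those of the controls on both sides. At 54 µg it was 1.07, 1.33, 1.11, 1.23 and 1.77, and at 162 µg it was 1.51, 1.40, 1.84, 1.84, 1.49 and 1.13. All 5 mice at 54 µg and all 6 at 162 µg thus lay above the highest control. Groups without overlap were found for 1 of the 10 enzymes at each of these doses, against 3.3% of all genes at 54 µg and 8.2% at 162 µg, and for 0 of the 10 at 18 µg, against 3.4%.

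Against controls, the log2 fold change of Sod2 was 0.15 (SE 0.19, adjusted p = 0.776 in limma) at the lowest dose and 0.72 (SE 0.20, adjusted p = 0.197) at 54 µg, neither of them called. At 162 µg it was 0.85 (SE 0.19, 95% confidence interval 0.46 to 1.25, adjusted p = 0.0117), a 1.81-fold rise. Treated and control mice of the same slide gave the same direction, with Sod2 higher in 4 of 4 slides at 18 µg, 3 of 3 at 54 µg and 4 of 4 at 162 µg, and by 0.50 to 0.99 in those at 162 µg. The call at 162 µg held with each of the 22 mice left out in turn, where the adjusted p was 0.0440 at most. It was lost with arrays centred on their median in place of loess (0.52, adjusted p = 0.686 in limma) and with the lung channel alone (0.80, adjusted p = 0.114).

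Neutrophil markers are given beside Sod2 because lung of instilled mice can hold recruited neutrophils. Of 10 markers 9 were above background, and their mean log2 ratio was 2.52, 4.67, 2.64, 2.56 and 2.00 in the controls. The upper end of the controls is thus that of replicate 2 alone. The mean ran from 2.17 to 3.18 for the lowest dose and from 2.57 to 3.43 for the middle dose. For the highest dose it was 3.36, 4.80, 3.26, 3.48, 3.21 and 2.16. Group medians were 2.56 in controls and 2.36, 2.93 and 3.31 in order of dose. The median log2 fold change of these markers was -0.03, 0.19 and 0.64 at the 3 doses, and 0 were called at any dose in limma. Their part in the change of Sod2 was not tested.

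Promoter sequences were matched for 8 of the 10 enzymes in the RefSeq table of GRCm38.p6, and those of both intracellular dismutases are shown because Sod2 was called and Sod1 was not. Sod2 lies on chromosome 17 at chr17:13007839-13018119, and its promoter entry at chr17:13007589-13007888 on the plus strand. Sod1 lies on chromosome 16 at chr16:90220762-90226333, and its promoter entry at chr16:90220512-90220811 on the plus strand. Each entry is 300 bases long. Capitals mark every match, on either strand, to the GC box GGGCGG, to the core of the antioxidant response element TGACNNNGC and to the κB motif of NF-κB, and neighbouring matches that overlap run together.
Sod2: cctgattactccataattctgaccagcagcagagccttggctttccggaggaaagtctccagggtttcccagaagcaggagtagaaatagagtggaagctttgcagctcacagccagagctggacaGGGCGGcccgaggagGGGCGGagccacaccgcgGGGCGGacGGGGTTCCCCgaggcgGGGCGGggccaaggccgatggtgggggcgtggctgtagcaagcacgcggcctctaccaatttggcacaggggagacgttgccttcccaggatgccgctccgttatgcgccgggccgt
Sod1: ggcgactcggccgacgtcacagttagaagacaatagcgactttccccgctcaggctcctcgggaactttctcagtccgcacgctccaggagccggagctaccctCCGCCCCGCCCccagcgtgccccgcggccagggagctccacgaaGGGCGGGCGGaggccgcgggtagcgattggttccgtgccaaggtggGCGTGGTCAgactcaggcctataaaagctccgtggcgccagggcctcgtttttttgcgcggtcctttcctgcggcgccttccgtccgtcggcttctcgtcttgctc
The Sod2 entry holds 4 GC boxes and 1 κB match, which starts 83 bases before the transcription start, and 0 matches to the antioxidant response core. The Sod1 entry holds 4 GC boxes, in overlapping pairs, and 1 match to the antioxidant response core starting 56 bases before the start, and 0 to the κB motif. Among 32851 mouse promoter entries of the same length, 35.7% hold a GC box, 12.4% the antioxidant response core and 8.46% the κB motif. Among the 8 entries, 4 hold the κB motif (Sod2, Cat, Gpx1 and Gpx3) and 1, that of Sod1, holds the antioxidant response core. Such a match is a description of the letters and not of a bound site.

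Sod1 and Sod3 were not called at any dose. The log2 ratio of Sod1 was 1.44 ± 0.13 (SD, n = 5) in control lungs. The mean was 1.00 ± 0.40 (SD, n = 6) after 18 µg, where 5 of 6 mice lay below the lowest control. Its log2 fold change at 18 µg was -0.35 (SE 0.15, adjusted p = 0.278 in limma), and within slides it was lower in 3 of 4. At 54 and 162 µg it was -0.01 and -0.03, with 95% confidence intervals of -0.35 to 0.33 and -0.35 to 0.29. Sod3, the extracellular dismutase, had a log2 ratio of 4.15 ± 0.24 (SD, n = 5) in control lungs. At 18 µg 6 mice averaged 4.37 ± 0.27 (SD), at 54 µg 3 mice averaged 4.01 ± 0.40 (SD), and at 162 µg 5 mice averaged 4.12 ± 0.34 (SD). Replicates 2 and 4 at 54 µg and replicate 2 at 162 µg had no Sod3 value because their spots were marked as outliers, and the fit drops them. The log2 fold changes of Sod3 were 0.17, -0.23 and -0.16 at the 3 doses (adjusted p = 0.687, 0.858 and 0.736 in limma).

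**Figure D2:**
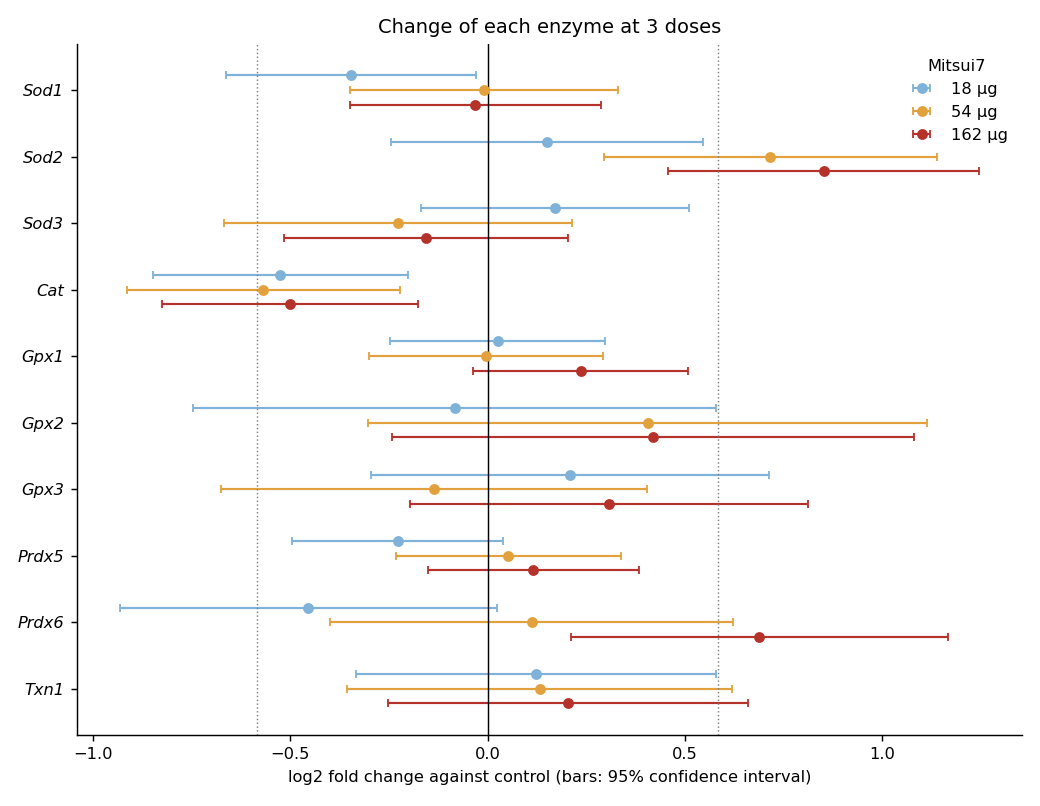
Log2 fold change against controls (horizontal axis) of the 10 enzymes at 3 doses of Mitsui7, each on its brightest probe. Values are from limma over 22 arrays, with 95% confidence intervals as bars. Dotted lines mark a 1.5-fold change. Sod2 at 54 and 162 µg, Prdx6 at 162 µg, Sod1 at 18 µg and Cat at all 3 doses have intervals that leave out 0, and of these Sod2 at 162 µg alone was called.

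Catalase had a negative log2 fold change of similar size at each dose, which passed neither the adjusted p nor the 1.5-fold limit. On the brighter of its 2 probes the control lungs had log2 ratios of 2.20, 2.03, 1.85, 1.63 and 2.47. At 18 µg the values ran from 1.23 to 2.04 with a median of 1.65, and at 162 µg from 1.18 to 2.02 with a median of 1.58. At 54 µg they were 1.24, 1.45, 2.13, 1.71 and 1.44. The groups overlap at every dose, and 2 of 6, 3 of 5 and 4 of 6 mice lay below the lowest control.

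The log2 fold change of Cat was -0.53 (SE 0.15, adjusted p = 0.0947 in limma) at 18 µg. It was -0.57 (SE 0.16, adjusted p = 0.226) at 54 µg and -0.50 (SE 0.15, adjusted p = 0.0660) at 162 µg. Within slides Cat was lower in 4 of 4, 3 of 3 and 4 of 4. The second probe, which is dim, gave -0.26, -0.38 and -0.33, with adjusted p values of 0.752, 0.838 and 0.663. Cat was called under 3 alternatives, which were the lung channel alone at 18 µg (-0.90, adjusted p = 0.0411), the fit of the 54 µg and control mice alone (-0.70, adjusted p = 0.0412) and the fit without replicate 3 at 162 µg (-0.60, adjusted p = 0.0448).

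Prdx6 was called higher at 162 µg on 3 of its 4 probes, 1 of them with a call that most other settings did not keep. Its log2 fold change was positive there on all 4 and negative at 18 µg on all 4. None of the 4 was called at 18 µg. The gene lies on chromosome 1 at chr1:161240112-161251210 (GRCm38.p6), and the 4 probes carry the same transcript accession. Probe sequences were not used here, so signal from the near-identical copies Prdx6b and Prdx6-ps2 cannot be told apart from that of Prdx6.

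On the brightest probe, A_55_P2103561, the control lungs had log2 ratios of 2.84, 3.45, 3.60 and 3.28, and replicate 5 had no value and is dropped by the fit. The values ran from 2.39 to 2.96 with a median of 2.80 at 18 µg, and from 3.48 to 4.41 with a median of 4.01 at 162 µg. At 54 µg they were 2.84, 3.45, 4.17, 3.33 and 2.63. Of the 6 mice at 162 µg, 5 lay above the highest control. The log2 fold change was -0.45 (SE 0.23, adjusted p = 0.360 in limma), 0.11 (SE 0.24, adjusted p = 0.964) and 0.69 (SE 0.23, adjusted p = 0.0891) at 18, 54 and 162 µg.

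On probe A_55_P2176731 the 5 controls had log2 ratios of 2.14, 2.62, 2.57, 2.05 and 2.09. The 6 mice at 162 µg ran from 2.93 to 4.10 with a median of 3.72, all above the highest control, and the 6 mice at 18 µg from 1.10 to 2.17 with a median of 1.88. The change at 162 µg was 1.31 on the log2 scale (SE 0.26, adjusted p = 0.00687 in limma), or 2.49-fold, and Prdx6 was higher in 4 of 4 slides by this probe. Probe A_55_P2176729 gave 1.12 (SE 0.26, adjusted p = 0.0174), with 6 of 6 mice above the highest control. The dim probe A_52_P388359 gave 0.65 (SE 0.19, adjusted p = 0.0475), with 4 of 6 mice above the highest control. By A_55_P2176729 and A_55_P2176731, Prdx6 at 18 µg was lower than the control in 4 of 4 slides, with log2 fold changes of -0.51 and -0.40 (adjusted p = 0.383 and 0.529). By the brightest probe it was lower there in 2 of 3 slides, and by A_52_P388359 in 3 of 4. At 162 µg Prdx6 was higher in 3 of 3 slides by the brightest probe, in 4 of 4 by A_55_P2176729 and in 3 of 4 by A_52_P388359.

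The call of A_55_P2176731 at 162 µg held with each of the 22 mice left out in turn and under the 11 other settings run. That of A_55_P2176729 was lost without control replicate 3 (adjusted p = 0.0613 in limma) or control replicate 4 (adjusted p = 0.0504) and with median centring (0.75, adjusted p = 0.0513). That of A_52_P388359 was lost in 17 of the 22 fits with 1 mouse left out and in 10 of the 11 other settings, where the adjusted p reached 0.461, and was kept with quantile normalisation. The brightest probe passed without replicate 3 (0.75, adjusted p = 0.0156) or replicate 5 (0.63, adjusted p = 0.0481) of the 54 µg group, and with the 4 arrays of under 60% of probes above background left out (0.68, adjusted p = 0.0194).

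Catalase and Prdx6 are known to be abundant in airway and type II alveolar cells, so the markers of these cells are given beside both genes. All 4 ciliated cell markers were above background, and their mean log2 ratio ran from 3.50 to 3.95 in the control lungs. In the treated lungs it ran from 1.32 to 3.99 for 18 µg, from 2.49 to 3.72 for 54 µg and from 1.26 to 3.43 for 162 µg. The median change of these markers was -1.10, -0.49 and -1.03, with 1 of 4 called at 162 µg. Of 4 club cell markers 3 were above background, with median changes of -0.53, -0.55 and -0.41 and 1 called at 162 µg. The 8 type II cell markers had median changes of 0.20, -0.03 and 0.09, and the 8 alveolar macrophage markers 0.43, 0.40 and 0.37. Each of these lists had 1 gene called higher at 162 µg, where 6.85% of all expressed genes were called. The alveolar macrophage list also had 1 called higher at 18 µg, where 2.06% of all expressed genes were called. The part of these cells in the values of Cat and Prdx6 was not tested.

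**Figure D3:**
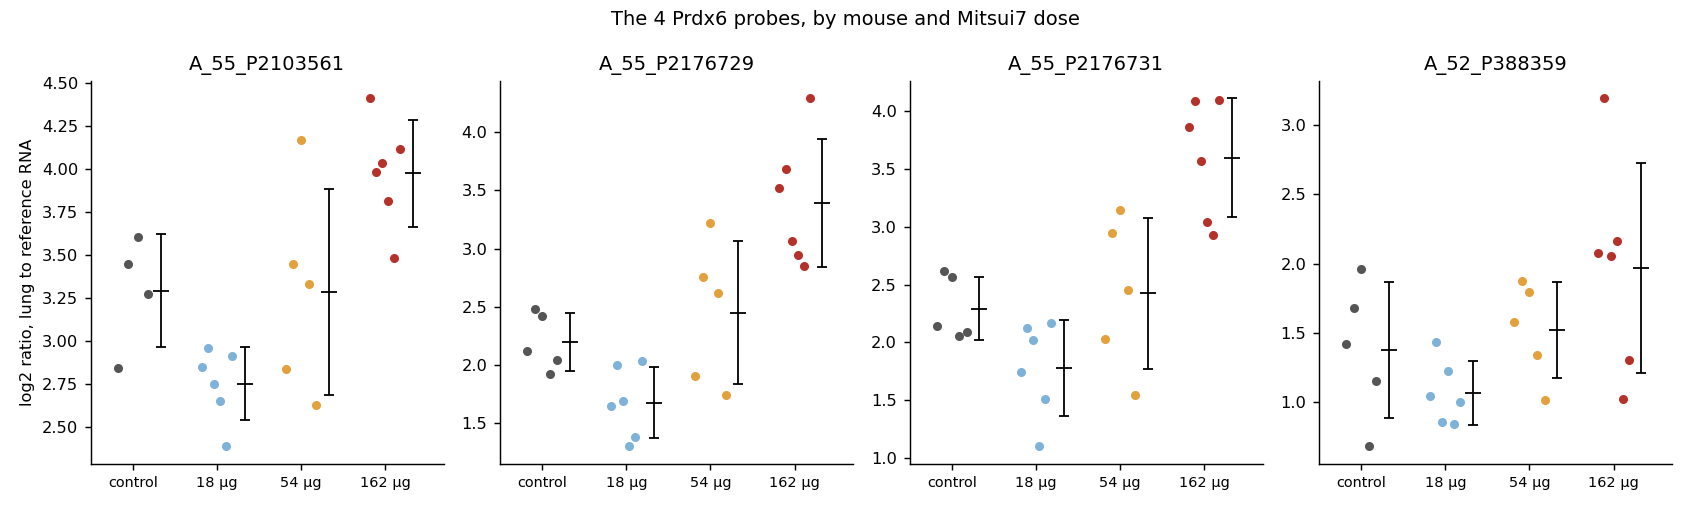
Log2 ratio of lung to reference RNA (vertical axes, each with its own range) on the 4 Prdx6 probes, from the brightest on the left to the dimmest on the right, in controls and at 3 doses of Mitsui7. Points are mice and bars beside them give the mean and SD. On A_55_P2176729 and A_55_P2176731 all 6 mice at 162 µg lie above all 5 controls.

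The difference between the highest and the lowest dose was called for 2 of the 10 enzymes, Prdx6 and Sod2, against 4.98% of all expressed genes. Prdx6 was higher at 162 than at 18 µg by 1.14 on the log2 scale (SE 0.19, adjusted p = 0.00322 in limma), a 2.21-fold difference, and this held with each of the 22 mice left out in turn. The other 3 Prdx6 probes gave 0.78 to 1.71 and were called as well. Sod2 was higher by 0.70 (SE 0.18, adjusted p = 0.0298). That call was lost without replicate 2, 5 or 6 of the 18 µg group and without replicate 1, 4 or 5 of the 162 µg group, where the adjusted p was 0.0700 to 0.0928. Over the 10 enzymes, 9 were higher at 162 than at 18 µg and 1, Sod3, was lower (-0.33, adjusted p = 0.280). Of the 9, only Prdx6 and Sod2 were called, and some differences were small, such as those of Cat (0.02), Txn1 (0.08) and Gpx3 (0.10). The share of all genes higher at 162 than at 18 µg was not counted.

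The glutathione peroxidases were not called at any dose in the loess-normalised ratios. Gpx1, the main cytosolic form, had a log2 ratio of 1.39 ± 0.20 (SD, n = 5) in control lungs. It averaged 1.65 ± 0.20 (SD, n = 5) after 162 µg, a change of 0.24 (SE 0.13, adjusted p = 0.371 in limma) that was positive in 4 of 4 slides. At 18 and 54 µg its log2 fold change was 0.03 and -0.0028, and replicate 4 at 18 µg, replicate 3 at 54 µg and replicate 4 at 162 µg had no value and are dropped by the fit. Gpx2, known from gut and airway epithelium, varied widely between mice at 18 µg, from 3.17 to 5.58, against 3.92 to 4.49 in controls. Its log2 fold changes were -0.08, 0.41 and 0.42, with standard errors of 0.31 to 0.34 and adjusted p values of 0.941, 0.833 and 0.568. Gpx3, the secreted form found in plasma, had log2 fold changes of 0.21, -0.14 and 0.31, with standard errors of 0.24 to 0.26 and adjusted p values of 0.753, 0.955 and 0.586. With the lung channel alone Gpx3 was called at 162 µg (1.18, adjusted p = 0.0226).

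Prdx5, a peroxiredoxin of mitochondria, peroxisomes and cytosol, had a mean log2 ratio of -0.40 ± 0.28 (SD, n = 5) in control lungs. It averaged -0.67 ± 0.22 (SD) in the 6 mice given 18 µg and -0.28 ± 0.14 (SD) in the 6 given 162 µg. It was not called at any dose, with log2 fold changes of -0.23, 0.05 and 0.12 (adjusted p = 0.426, 0.973 and 0.741 in limma). At 18 µg Prdx5 was lower in 4 of 4 slides.

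Txn1, which returns oxidised peroxiredoxins to their reduced form, had log2 ratios of -0.68 to -0.23 in controls. In each treated group 1 mouse lay far below the rest, at -1.55 for replicate 6 at 18 µg, -1.59 for replicate 3 at 54 µg and -1.20 for replicate 6 at 162 µg. The other 14 treated mice lay between -0.53 and -0.19. Within slides that held a control, Txn1 was higher in 4 of 4, 3 of 3 and 4 of 4 in order of dose. The log2 fold change, fitted with slide, was 0.12 (SE 0.22, adjusted p = 0.854 in limma), 0.13 (SE 0.23, adjusted p = 0.950) and 0.21 (SE 0.22, adjusted p = 0.729) at 18, 54 and 162 µg. With the 4 arrays of under 60% of probes above background left out, which include those 3 mice, it was 0.14, 0.16 and 0.17.

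Those 3 arrays had a median Cy5 signal over background of 1.25, 1.40 and 1.17, and all 3 lie on the 2 slides without a control. In the same 3 mice Gpx3 had the highest value of its group, at 6.14, 5.94 and 6.42. Because the 3 low Txn1 values stand apart from the other 19, no correlation over all arrays is given for Txn1. For Gpx3, the log2 ratio was related to log2 Cy5 signal over background over the 22 arrays with Pearson's r = -0.46 (permutation p = 0.0290) and Spearman's rho = -0.47 (permutation p = 0.0271). Without the 2 arrays farthest from the median brightness r was -0.37, and after removing group means it was -0.47. For Sod1 r was 0.50 (permutation p = 0.0147) and rho 0.45 (permutation p = 0.0389), with r = 0.54 without 2 arrays and 0.40 after removing group means. For Cat r was -0.31 (permutation p = 0.165) and rho -0.37 (permutation p = 0.0903), with r = -0.27 without 2 arrays and -0.58 after removing group means. For Prdx5 r was 0.41 (permutation p = 0.0607) and rho 0.43 (permutation p = 0.0448). Without 2 arrays its r was 0.50, and after removing group means it was 0.34. Such relations were computed for all 10 enzymes. The permutations shuffled arrays without regard to slide or dose group. Arrays of a slide or dose group are not independent, so these p values are descriptions only. After Benjamini-Hochberg adjustment the permutation p for r was 0.0967 for Gpx3, 0.0736 for Sod1, 0.274 for Cat and 0.149 for Prdx5. That for rho was 0.112, 0.112, 0.181 and 0.112 in the same order. The part of array brightness in the values of Txn1, Gpx3, Sod1, Cat and Prdx5 was not tested further.

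**Figure D4:**
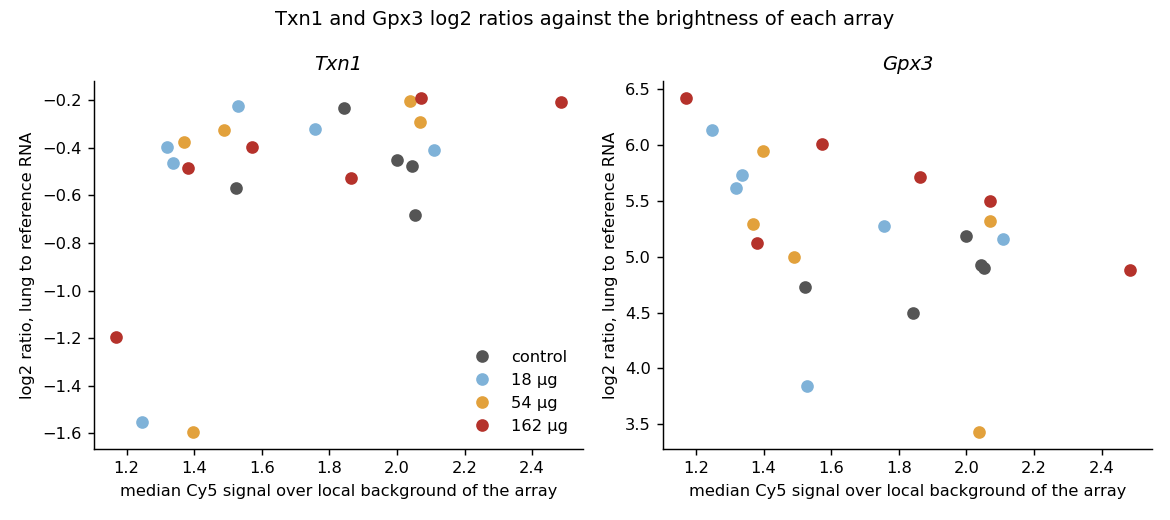
Log2 ratio of lung to reference RNA of Txn1 (left) and Gpx3 (right) on the vertical axes, against the median Cy5 signal over local background of each array on the horizontal axes. Points are mice, coloured by group. The 3 lowest Txn1 values, from -1.59 to -1.20, lie at brightness 1.17 to 1.40, and the same 3 arrays have Gpx3 values from 5.94 to 6.42.

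Among other enzymes of the same pathways, Txnrd1 and Glrx rose and Gpx8 and Msrb2 fell at 162 µg. Of 32 listed genes of glutathione, thioredoxin, peroxiredoxin, sestrin and methionine sulfoxide metabolism, 31 were expressed. At 18 and 54 µg 0 of these were called in limma. Gpx8 passed the adjusted p but not the fold at 54 µg (-0.57, adjusted p = 0.0483) and neither at 18 µg (-0.43, adjusted p = 0.0504). At 162 µg 2 rose and 2 fell, so 4 of 31 were called against 6.85% of all expressed genes, and the median log2 fold change was 0.08. Thioredoxin reductase 1 (Txnrd1), which reduces thioredoxin, ranged from -1.39 to -0.57 in the control lungs and from -0.55 to -0.02 after 162 µg, without overlap, a change of 0.64 (SE 0.14, adjusted p = 0.0106). Glutaredoxin (Glrx), which removes glutathione from proteins, rose by 0.83 (SE 0.21, adjusted p = 0.0245). Gpx8, a peroxidase of the endoplasmic reticulum, fell by 0.67 (SE 0.10, adjusted p = 0.00115), and Msrb2, a mitochondrial methionine sulfoxide reductase, fell by 0.69 (SE 0.14, adjusted p = 0.00637). Each of the 4 had the same direction in 4 of 4 slides. All 4 calls were lost with median centring, where the changes were 0.31, 0.49, -0.92 and -0.91 in the same order. The Txnrd1 call was also lost with quantile normalisation, the lung channel alone and the deposited log2 values, that of Glrx with quantile normalisation (0.73, adjusted p = 0.0627) and that of Gpx8 with the lung channel alone (-0.51, adjusted p = 0.0859). Prdx3 and Srxn1 passed the adjusted p but not the fold (0.56 and 0.54, adjusted p = 0.0327 and 0.0132). The Glrx call was lost without any 1 of control replicates 3, 4 and 5 or of replicates 1 and 2 at 162 µg, with adjusted p values of 0.0660 to 0.115. Without control replicate 5, Msrb2 fell by 0.57, under the fold required.

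**Figure D5:**
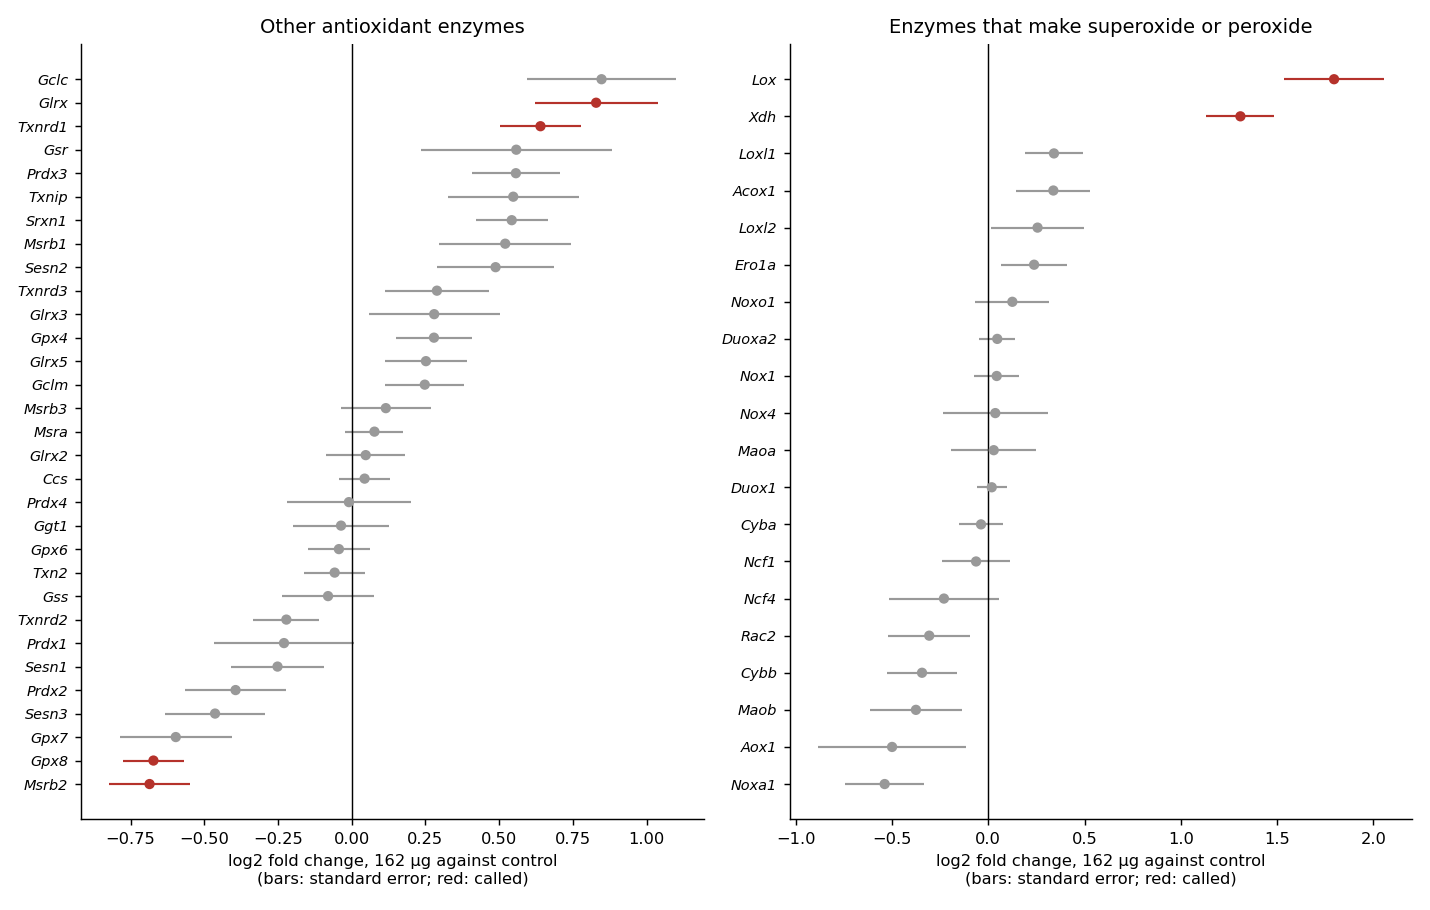
Log2 fold change at 162 µg against controls (horizontal axes), with its standard error, of the 31 expressed genes of the other antioxidant list (left) and the 20 of the list of enzymes that make superoxide or peroxide (right). Genes that were called are red. Txnrd1 and Glrx rose and Gpx8 and Msrb2 fell on the left, and Xdh and Lox rose on the right.

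Of 23 listed enzymes that make superoxide or peroxide, 21 were on the array by name and 20 were expressed. The phagocyte NADPH oxidase subunits given here did not pass the threshold at 162 µg, with log2 fold changes of -0.34 for Cybb, -0.04 for Cyba, -0.06 for Ncf1 and -0.23 for Ncf4. Called at 162 µg were xanthine dehydrogenase (Xdh), whose oxidase form makes superoxide, and lysyl oxidase (Lox), which releases hydrogen peroxide as it oxidises collagen and elastin. Xdh rose by 1.31 (SE 0.18, adjusted p = 0.000549 in limma) and Lox by 1.80 (SE 0.26, adjusted p = 0.000726), each above the highest control in 6 of 6 mice. These are 2 of 20 genes, against 6.85% of all expressed genes. At 18 and 54 µg 0 of the 20 were called. The median log2 fold change of the 20 was 0.03 at 162 µg.

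The genes whose log2 ratios most resembled those of Sod2 over the 22 arrays, among 14976 expressed genes, were Akr1b8 (Pearson's r = 0.92), Orm2 (r = 0.88) and Ufd1 (r = 0.88). For Prdx6, over the 21 arrays with a value and 14977 genes, they were Nedd4l (r = 0.94), Hyal1 (r = 0.93) and Tango2 (r = 0.91). These genes were picked for their likeness, and arrays share the dose groups and slides, so the values are descriptions. Prdx6 was included here because it was called between 162 and 18 µg.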

How the data were processed

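Lung RNA of 22 mice was analysed. The authors deposited intensity values per spot for each array. They are median pixel signals of both channels without background subtraction, which the file headers credit to Feature Extraction 10.7.3.1. The authors also deposited a table of log2 ratios, whose normalisation is not given in the sources used here and which served as an alternative. Spots flagged as outliers by the software, and control spots, were left out, log2 ratios of Cy5 to Cy3 were normalised by loess (span 0.3), and the median over spots of a probe was taken. RefSeq accessions named 26413 of 55681 probes. A probe was above background where Cy5 exceeded the trimmed mean plus 3 trimmed SD (5% trimmed) of the 308 negative control spots in 80% or more of the arrays of any 1 dose group. Slides were read from the array barcodes. Dose and slide, with 12 residual degrees of freedom, were fitted in limma 3.58.1 (R 4.3.3), once for each baseline group, with Benjamini-Hochberg adjustment of p. The pipeline was tested on simulated data. Permutation tests used 100000 resamples, were two-sided and shuffled arrays across slides and dose groups. Loess assumes that most genes do not change, and the number of arrays limits the precision. The members and lists, comparisons and alternatives were chosen with earlier results of these data known. Named genes were the 10 members, the genes of the 2 other lists called at any dose, and the 3 genes most like each called member. Prdx3, Srxn1, the 4 NADPH oxidase subunits given and the genes most like Prdx6 were added after their values were seen. Of the list of enzymes that make superoxide or peroxide, 1 gene is not reported here. The alternatives were other background corrections, normalisations, slide terms, filters and leaving out mice.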

Additional observations from a re-analysis of the deposited data

Results flagged for a closer look

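Of 55 groups of at least 4 values, taken over the 14 probes, 3 held a mouse whose distance to the nearest other mouse exceeded Dixon's critical value at the 95% level, and chance alone flags about 1 in 20 groups. All 3 were low values of Txn1. They were -1.55 for replicate 6 at 18 µg, -1.59 for replicate 3 at 54 µg and -1.20 for replicate 6 at 162 µg, with gaps of 0.82, 0.88 and 0.66 of the range of their groups. On the arrays of these 3 mice 56.8%, 58.1% and 53.5% of probes lay above background.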

How the results depend on the processing

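Sod2 at 162 µg kept its direction under every alternative run, from 0.52 to 1.00, and its call under all but median centring and the lung channel alone. The median log2 fold change of all expressed probes, -0.0091 at 18 µg and -0.0086 at 162 µg with loess, was -0.14 and -0.11 with median centring, and 0.18 at 18 µg with the lung channel alone. No cause of a changed call was tested. Dim arrays limit what could be seen, and an absent call does not show an absent change.

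The number of members called at 162 µg, 1 in limma, was 0 with median centring, 2 with the median over the probes of a gene (Sod2 and Prdx6), 2 without the 4 arrays of under 60% of probes above background (an alternative chosen after seeing the data), and 1 to 2 with single mice left out. At 18 µg 1 member was called with the lung channel alone (Cat), and at 54 µg 1 with only the 2 groups compared (Cat). The number that differed between 162 and 18 µg, 2 in limma, was 1 with median centring, quantile normalisation, the lung channel alone or no slide term, and 1 to 2 with single mice left out. Of the other antioxidant genes, 4 were called at 162 µg, against 0 with median centring, 2 with quantile normalisation, 7 without a slide term or with only the 2 groups compared, 8 without the 4 dim arrays and 2 to 6 with single mice left out (2 without control replicate 5). At 18 µg 1 was called without the dim arrays and 0 to 1 with single mice left out (1 without replicate 5 at 54 µg). At 54 µg 2 were called with only the 2 groups compared, 1 without the dim arrays and 0 to 1 with single mice left out (1 without control replicate 2 or replicate 2 at 18 µg).

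The labels number the samples but do not say whether the numbers pair the mice. Profiles of the 31 pairs with the same number in different groups correlated from -0.17 to 0.62 with a median of 0.17. The median was 0.10 for the 20 of these on different slides, and 0.26 for pairs of different groups on the same slide. Pairs with different numbers were not compared separately, so these values cannot show whether the numbers pair the mice. With sample number as a block beside slide, 2 other antioxidant genes were called at 162 µg, Prdx6 lost its call on A_55_P2176729 (0.81, adjusted p = 0.0897 in limma) and A_52_P388359 and Txnrd1 (0.65, adjusted p = 0.121), Glrx (0.61, adjusted p = 0.280) and Lox (1.31, adjusted p = 0.0696) theirs, and the log2 fold changes that turned were those of Gpx1 (-0.12) and Gpx3 (-0.028) at 18 µg and of Gpx2 (-0.31) and Txn1 (-0.060) at 54 µg.

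The remaining reversals are of log2 fold changes that were not called. Median centring gave -0.27 for Sod2, -0.21 for Sod3, -0.47 for Gpx1, -0.17 for Gpx3 and -0.29 for Txn1 at 18 µg, 0.15 for Gpx1 at 54 µg, and -0.098 for Gpx1, -0.14 for Gpx3, -0.18 for Prdx5 and -0.090 for Txn1 at 162 µg. Quantile normalisation gave 0.073 for Gpx2 at 18 µg and 0.021 for Sod1 at 54 µg and 0.025 at 162 µg. The lung channel alone gave -0.062 for Gpx1 at 18 µg, 0.12 for Sod1, 0.13 for Sod3, 0.12 for Gpx1 and 0.55 for Gpx3 at 54 µg, and 0.019 for Sod1 at 162 µg. The deposited log2 table gave -0.066 for Gpx1 at 18 µg, 0.17 for Gpx1, -0.0083 for Prdx5 and -0.048 for Prdx6 at 54 µg, and -0.016 for Prdx5 at 162 µg. With outlier spots kept Gpx1 was 0.12 at 54 µg. Without a slide term Gpx2 was 0.0075 and Txn1 -0.079 at 18 µg, Gpx3 0.15, Prdx5 -0.040, Prdx6 -0.0094 and Txn1 -0.076 at 54 µg, and Txn1 -0.019 at 162 µg. With slide as a random block Gpx3 was 0.032 and Prdx5 -0.0016 at 54 µg. With only the 2 groups compared Gpx1 was -0.065 at 18 µg and 0.14 at 54 µg, Prdx6 -0.081 at 54 µg and Sod1 0.041 at 162 µg. Without the dim arrays Gpx1 was -0.0019 at 18 µg and 0.092 at 54 µg, Prdx5 -0.017 at 54 µg and Sod1 0.023 at 162 µg.

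With single mice left out, the values that crossed 0 ranged from -0.050 to 0.10 for Gpx1 and -0.31 to 0.16 for Gpx2 at 18 µg. At 54 µg they ranged from -0.067 to 0.066 for Sod1, -0.13 to 0.092 for Gpx1, -0.29 to 0.13 for Gpx3, -0.082 to 0.14 for Prdx5, -0.076 to 0.29 for Prdx6 and -0.078 to 0.36 for Txn1. At 162 µg they ranged from -0.14 to 0.032 for Sod1 and -0.0079 to 0.20 for Prdx5.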
